A study of Mus with 8 samples.

Results

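The genes described here encode 9 receptors of natural killer (NK) cells: Klrh1, Klrb1c, Klrk1, Klrd1, Klrc1, Klre1, Klrg1, Ncr1 and Cd244a. They are 9 of the 22911 genes that could be named on the array, and 15 of its 56605 probes matched a RefSeq transcript of one of them. The set was chosen by the measured host difference of Klrh1 on these same arrays, with the other receptors added around it. The host differences of the 9 genes are therefore given as descriptions, without a test of their own.

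RNA came from whole tumours formed under the skin by transplanted MC38, a line of murine colon carcinoma. There were 4 tumours from Ext1S100a4Cre hosts (Ext1 flox/flox; S100a4-Cre) and 4 from WT hosts, 4 mice of each kind, both described as B6, and all were removed 25 to 30 days after the transplant. In the Ext1S100a4Cre host the heparan sulfate polymerase gene Ext1 is floxed and the Cre is driven by S100a4, a gene expressed by fibroblasts but also by certain leukocytes, and both hosts received MC38 cells. The labels give no age and no Cre-only or flox-only host, and they do not say whether the animals shared litters. The study asked about heparan sulfate made by the fibroblasts of the host.

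NK cells kill stressed or transformed cells without prior priming, and they weigh signals from activating receptors against signals from inhibitory ones. Many of these receptors are lectin-like proteins whose genes lie side by side in the NK gene complex on mouse chromosome 6. Several are also made by activated CD8 T cells, by NKT cells and by other innate lymphoid cells, so none of them alone counts NK cells. In whole-tumour RNA, fewer cells of a type and less RNA per cell cannot be told apart.

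Levels below are log2 of the probe's processed intensity relative to the 75th percentile of its array, and a difference is the Ext1S100a4Cre host minus the WT host on that scale. That percentile ran from an intensity of 846.9 to 1265 over the 8 arrays, and 65.7% to 71.1% of probes were well above background. The lowest level flagged well above background lay between -7.05 and -6.36, depending on the array. The epithelial genes Epcam, Krt8 and Krt18 and the leukocyte gene Ptprc were well above background on all 8 arrays, so both tumour and immune RNA were present. Over all 31281 genes and transcripts tested, limma called 0 at an adjusted p under 0.05 (0%) and 2050 at an unadjusted p under 0.05 (6.55%), of which 676 were lower (2.16% of all) and 1374 higher (4.39%) in the Ext1S100a4Cre host. The smallest shares of detected probes, 65.7% and 66.0%, were those of Ext1S100a4Cre tumours 1 and 4. A Y-linked signal was absent from tumours 1 and 4 of the Ext1S100a4Cre host and present in the other 6, where 4 of 4 Y-linked genes looked at were well above background.

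Klrh1, a lectin-like receptor gene of the NK gene complex, was detected above background in no tumour of the Ext1S100a4Cre host and in every tumour of the WT host. Its level was -8.68, -9.03, -8.79 and -8.59 in Ext1S100a4Cre host tumours 1 to 4, against -6.71, -6.10, -4.73 and -5.82 in WT host tumours 1 to 4. Every Ext1S100a4Cre host tumour lay below every WT host tumour. The means were -8.77 ± 0.19 in the Ext1S100a4Cre host and -5.84 ± 0.83 in the WT host (SD, n = 4 each), a difference of -2.93 (SE 0.38). Because the signal of the Ext1S100a4Cre host was not well above background, the true fold is not known. With those readings raised to the lowest level flagged well above background on their array, Klrh1 was 1.66-fold lower there by this probe. That level is not a strict detection limit, since some unflagged probes read above it.

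The Klrh1 probe was dim even where it was detected. Its processed intensity was 2.09, 1.95, 2.56 and 2.20 in Ext1S100a4Cre host tumours 1 to 4 and 11.0, 18.4, 38.8 and 19.8 in WT host tumours 1 to 4. A second probe for the same Klrh1 transcript was not well above background in any of the 8 tumours. It read -8.60 ± 0.20 in the Ext1S100a4Cre host and -8.60 ± 0.39 in the WT host (SD, n = 4 each), so it gave no host difference and the Klrh1 pattern rests on 1 probe. Of this second probe's readings, the highest was -8.08 in WT host tumour 3, which was also the highest tumour for the first probe. The first probe passed the filter, which asks for 4 of 8 arrays well above background, only through its WT host readings.

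With normexp background correction, which adds an offset of 50 to intensities of this size, the Klrh1 difference shrank to -0.22. Within the first slide row the difference was -2.45 and within the second -3.42, each from 2 tumours of either host. It stayed between -3.22 and -2.56 when any single tumour was left out.

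**Figure D1:**
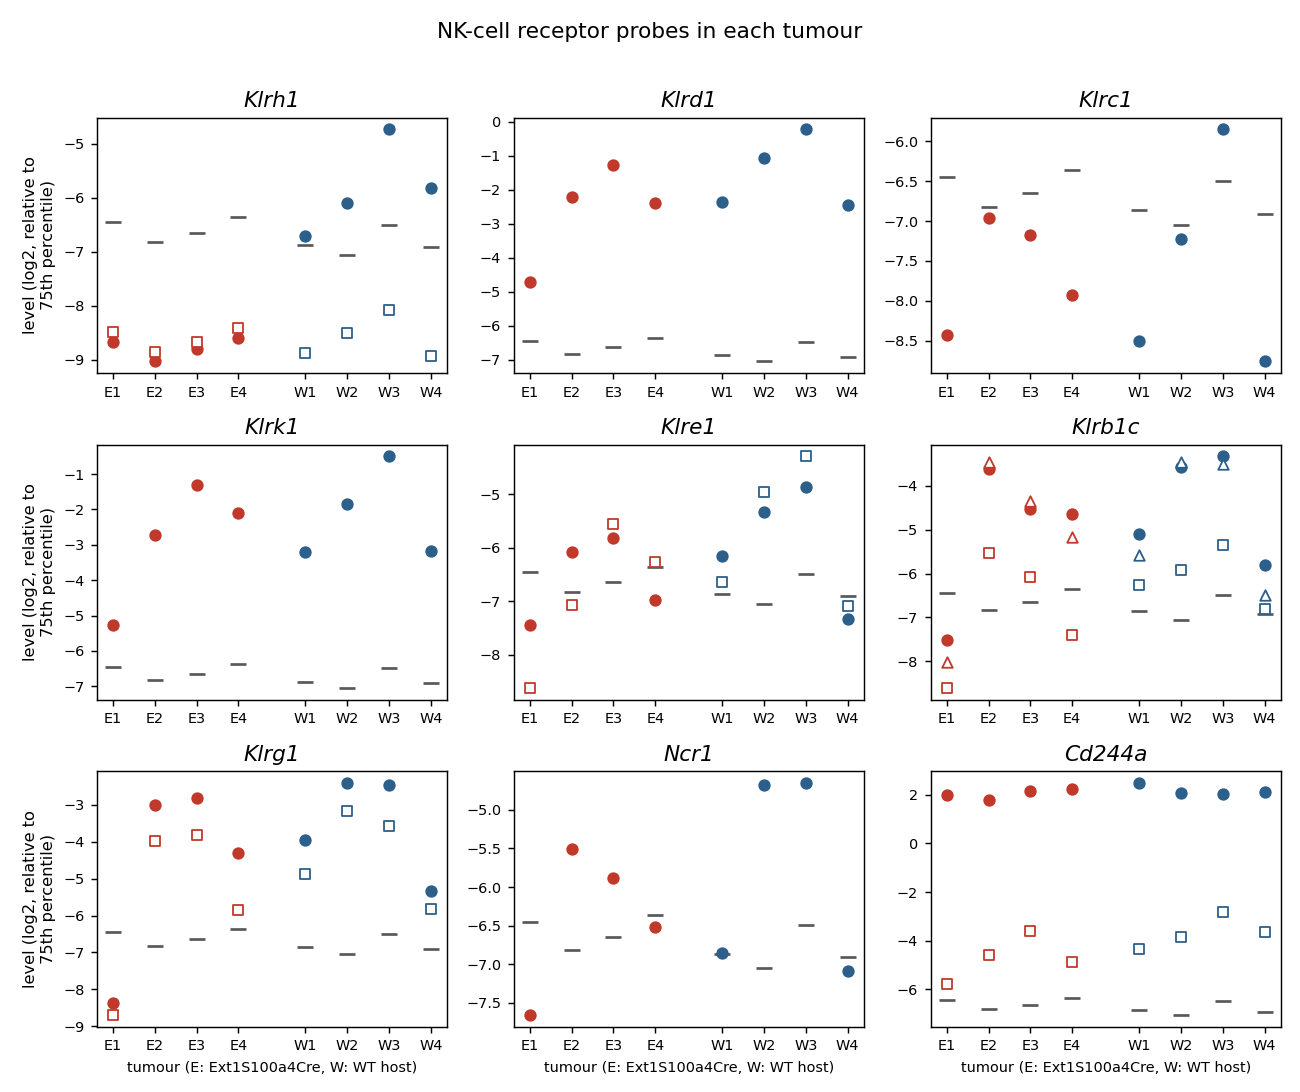
Level of every probe of the 9 receptor genes (y axis, log2 relative to the array's 75th percentile) in the 4 Ext1S100a4Cre host tumours (E1 to E4, red) and the 4 WT host tumours (W1 to W4, blue). Filled circles are the probe that stands for the gene (for Klrc1 its only probe), open squares and triangles are further probes, and grey bars mark the lowest level well above background on each array; the filled Klrh1 points lie below the bars in all E tumours and above them in all W tumours.

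CD94, the product of Klrd1, pairs with NKG2 proteins on the NK cell surface, and its pair with the inhibitory NKG2A, the product of Klrc1, reads the class I-like molecule Qa-1. Klrd1 was well above background in all 8 tumours. It measured -4.73, -2.22, -1.27 and -2.38 in Ext1S100a4Cre host tumours 1 to 4 and -2.37, -1.08, -0.23 and -2.45 in WT host tumours 1 to 4. Ext1S100a4Cre host tumour 1 was the lowest and WT host tumour 3 the highest, and the other values of the 2 hosts overlapped. The means were -2.65 ± 1.47 in the Ext1S100a4Cre host and -1.53 ± 1.07 in the WT host (SD, n = 4 each), a difference of -1.12 (SE 0.79). Without Ext1S100a4Cre host tumour 1 the difference was -0.42.

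Klrc1 could not be compared between the hosts. Its single probe was well above background in 1 tumour, WT host tumour 3 (-5.85), and it did not pass the filter. Its other readings ran from -8.43 to -6.96 in the Ext1S100a4Cre host and from -8.76 to -7.23 in the rest of the WT host. These 7 readings were not well above background, so no host difference is given. Over the 8 tumours the probe had r = 0.816 and rho = 0.833 with the mean level of Klrb1c, Klrk1, Klrd1, Klre1, Klrg1 and Ncr1, a description that rests mostly on readings near background.

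Klre1 encodes a receptor that in mice pairs with the products of Klri1 and Klri2. Its representative probe measured -7.44, -6.08, -5.81 and -6.98 in Ext1S100a4Cre host tumours 1 to 4 and -6.17, -5.34, -4.87 and -7.33 in WT host tumours 1 to 4. The probe cleared background in 2 Ext1S100a4Cre tumours and 3 WT tumours, and the groups overlapped. The difference was -0.65 (SE 0.58) with this probe and -1.13 (SE 0.81) with a second one. Of the possible partners, the Klri1 probe was not well above background in any tumour and the Klri2 probe was so in 1 WT host tumour.

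NKG2D, the product of Klrk1, is an activating receptor for stress-induced ligands. Klrk1 measured -5.27, -2.73, -1.31 and -2.10 in Ext1S100a4Cre host tumours 1 to 4 and -3.20, -1.85, -0.50 and -3.18 in WT host tumours 1 to 4, all well above background. Tumours 2, 3 and 4 of the Ext1S100a4Cre host lay inside the WT range and tumour 1 far below it. The means of -2.85 ± 1.71 in the Ext1S100a4Cre host and -2.18 ± 1.29 in the WT host (SD, n = 4 each) differed by -0.67 (SE 0.93). Leaving out Ext1S100a4Cre host tumour 1 turned the difference to 0.13.

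Klrb1c encodes NKR-P1C, the activating antigen long used to mark NK cells in B6 mice. Its representative probe measured -7.52, -3.61, -4.54 and -4.65 in Ext1S100a4Cre host tumours 1 to 4 and -5.11, -3.58, -3.33 and -5.80 in WT host tumours 1 to 4. Only in Ext1S100a4Cre host tumour 1 was it not well above background. The hosts differed by -0.63 (SE 0.90), and 2 further probes gave -0.83 (SE 0.65) and -0.49 (SE 1.07). Without Ext1S100a4Cre host tumour 1 the representative probe differed by 0.18, and with normexp by 0.024.

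Ncr1 encodes NKp46, an activating receptor confined largely to NK cells and related innate lymphoid cells. It measured -7.66, -5.50, -5.88 and -6.52 in Ext1S100a4Cre host tumours 1 to 4 and -6.86, -4.67, -4.65 and -7.09 in WT host tumours 1 to 4. Tumours 2 and 3 of both hosts cleared background with this probe, so the low end of each group is at background. Group means were -6.39 ± 0.94 in the Ext1S100a4Cre host and -5.82 ± 1.34 in the WT host (SD, n = 4 each). They differed by -0.57 (SE 0.71).

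Klrg1 encodes an inhibitory receptor for E-, N- and R-cadherin that marks mature NK cells and effector T cells. Its level was -8.37, -3.01, -2.81 and -4.29 in Ext1S100a4Cre host tumours 1 to 4 and -3.96, -2.41, -2.46 and -5.33 in WT host tumours 1 to 4. Among the representative probes of the 9 chosen receptors it had the widest spread within the Ext1S100a4Cre host, with tumour 1 not well above background. The difference was -1.08 (SE 1.27), and a second probe gave -1.23 (SE 1.10). Without tumour 1 of the Ext1S100a4Cre host it was 0.17, and without its tumours 1 and 4 it was 0.63.

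Cd244a encodes 2B4, a receptor of the SLAM family that binds CD48, and its 2 probes disagreed. The representative probe lay between 1.79 and 2.23 in the Ext1S100a4Cre host and between 2.01 and 2.48 in the WT host, and differed by -0.13 (SE 0.16). The other probe measured -5.79, -4.57, -3.59 and -4.88 in Ext1S100a4Cre host tumours 1 to 4 and -4.33, -3.87, -2.82 and -3.65 in WT host tumours 1 to 4, a difference of -1.04 (SE 0.49). Both were well above background in all 8 tumours. Across the 8 tumours the 2 probes were nearly unrelated (Pearson r = 0.064, Spearman rho = 0.119). Only the second varied with the 6 receptors Klrb1c, Klrk1, Klrd1, Klre1, Klrg1 and Ncr1 (r = 0.788 with their mean, or 0.136 without WT host tumour 3 and Ext1S100a4Cre host tumour 1), against r = -0.070 for the first.

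Counting representative probes, 8 of the 9 genes passed the filter and 8 of 8 had a lower mean in the Ext1S100a4Cre host, as did 41.9% of all genes tested. The median difference of the 8 was -0.66, beside 0.05 over all genes tested. Without Klrh1 their differences ran from -1.12 to -0.13. The hosts did not overlap for 1 of the 8, Klrh1. Over all genes tested, 1.14% lay without overlap lower in the Ext1S100a4Cre host and 4.52% without overlap in either direction. The filter, the choice of Klrh1 and a single tumour all bear on these counts: the lowest tumour was Ext1S100a4Cre host tumour 1 for 6 of the 8. Leaving it out brought the median to -0.13, leaving out tumours 1 and 4 of that host to 0.055, and leaving out WT host tumour 3 to -0.28.

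The 6 receptors Klrb1c, Klrk1, Klrd1, Klre1, Klrg1 and Ncr1 varied together over the 8 tumours taken as 1 set. They are the tested receptors less Klrh1 and Cd244a, so their likeness follows in part from that choice. The representative Cd244a probe had r of -0.333 to 0.031 with the 6. Pairwise Pearson r among the 6 over the 8 tumours ran from 0.797 to 0.964 and Spearman rho from 0.810 to 1. Without the highest and the lowest tumour, WT host tumour 3 and Ext1S100a4Cre host tumour 1, r ran from 0.495 to 0.954. All values come from 1 slide and from tumours that differed widely in their immune RNA, so these correlations describe a shared pattern and were not tested. The mean level of the 6 was -6.83, -3.86, -3.60 and -4.49 in Ext1S100a4Cre host tumours 1 to 4 and -4.61, -3.15, -2.67 and -5.20 in WT host tumours 1 to 4. Tumours 2, 3 and 4 of the Ext1S100a4Cre host lay within the WT range. The hosts' means differed by -0.79, by -0.07 without Ext1S100a4Cre host tumour 1 and by 0.18 without its tumours 1 and 4.

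Klrh1 was chosen for its split between the hosts, and its 4 Ext1S100a4Cre readings are at background, so its correlation with the other receptors over the 8 tumours is limited by both. Its r with the 6 receptors was 0.290 to 0.535 and its rho 0.191 to 0.238, and without WT host tumour 3 and Ext1S100a4Cre host tumour 1 its r was -0.432 to 0.008. Ext1S100a4Cre host tumours 2 and 3 had mean levels of the 6 receptors above those of WT host tumours 1 and 4, yet Klrh1 was at background in the Ext1S100a4Cre pair and detected in the WT pair. Among the 4 WT host tumours, where Klrh1 was detected, both it and the mean of the 6 receptors were highest in tumour 3, whereas tumour 4 was lowest for the mean and second highest for Klrh1. No test of this contrast is given.

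**Figure D2:**
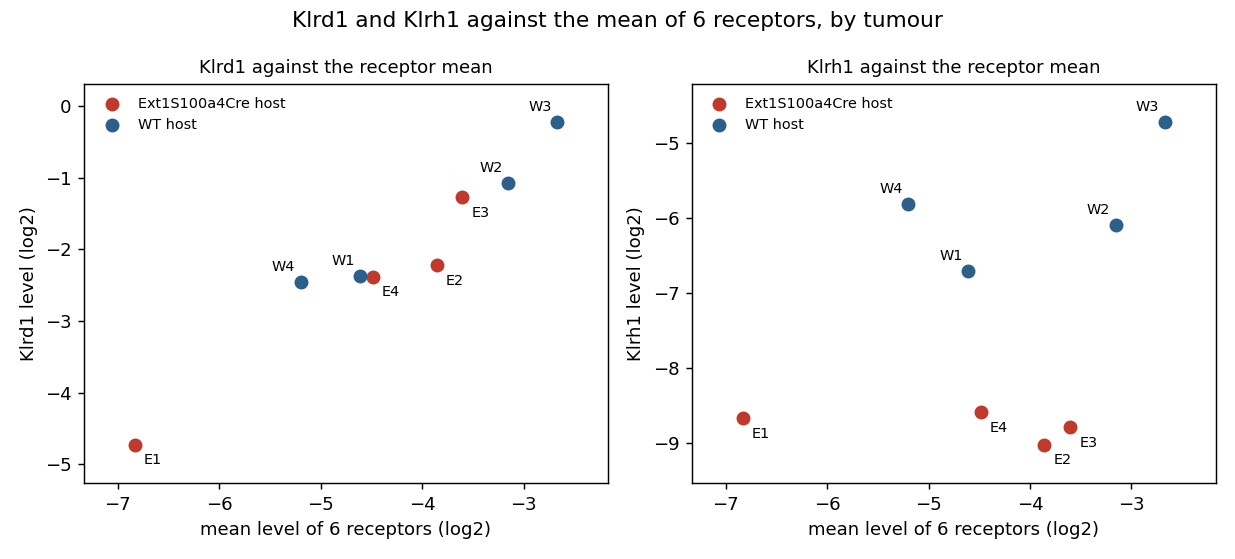
Level of Klrd1 (left) and of Klrh1 (right), both log2 relative to the array's 75th percentile, against the mean level of Klrb1c, Klrk1, Klrd1, Klre1, Klrg1 and Ncr1 (x axis, log2); each point is 1 tumour of the Ext1S100a4Cre host (E, red) or the WT host (W, blue). Klrd1, itself part of the mean, rises along it in both hosts. Klrh1 splits by host, with all E tumours at or below -8.59 and all W tumours at or above -6.71. Klrh1 was chosen for this split, and its E readings are at background and could not follow the mean.

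Among 15731 named genes, those whose pattern over the 8 tumours was most like that of Klrh1 were Ly6k (r = 0.968, rho = 0.929), Fcrl1 (r = 0.967, rho = 0.857), H2-T24 (r = 0.964, rho = 0.929), Lysmd2 (r = 0.959, rho = 0.905), Cdkn2c (r = 0.947, rho = 0.905) and Ms4a1 (r = 0.945, rho = 0.810). Fcrl1 and Ms4a1, the gene of CD20, are B-cell surface genes. Both cleared background in 0 of 4 Ext1S100a4Cre tumours and in 4 of 4 WT tumours, and so passed the filter through WT readings alone, as Klrh1 did. Since the genes were picked for their likeness to a gene chosen for its host split, this shared pattern follows from the choice. Without WT host tumour 3 and Ext1S100a4Cre host tumour 2, the highest and the lowest for Klrh1, r of the 6 genes ran from 0.887 for Ms4a1 to 0.973 for H2-T24.

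A second list held the 10 genes most like the mean of the other 7 tested receptors. Klra4, Klra7, Klra8 and Klra16 belong to the Ly49 family, receptors of the NK gene complex, and had r = 0.988, 0.982, 0.977 and 0.976. Il2rb, the beta chain shared by the IL-2 and IL-15 receptors, had r = 0.984 (rho = 0.976), and Txk, a kinase of lymphocytes, had r = 0.972. Dusp2, Glrp1, Hspa12b and Ddx43 completed the 10, with r = 0.977, 0.976, 0.975 and 0.969. Ddx43 cleared background in 2 of 4 tumours of each host, so its r rests in part on background readings. The Ly49 genes are close copies of each other, so their probes may share transcripts. Without WT host tumour 3 and Ext1S100a4Cre host tumour 1, r of the 10 ran from 0.868 for Ddx43 to 0.957 for Klra7.

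Klrh1 lies between Klri2 and Klra17 among the protein-coding genes of chromosome 6, in the order of assembly GRCm38.p6. Klra17 measured -5.22, -5.56, -6.12 and -8.31 in Ext1S100a4Cre host tumours 1 to 4 and -5.80, -4.37, -2.97 and -5.44 in WT host tumours 1 to 4. It was detected in 3 of 4 Ext1S100a4Cre host tumours, unlike Klrh1, and the hosts overlapped, with a difference of -1.66 (SE 0.82). Klra5, the next protein-coding gene, differed by -0.40 (SE 0.64). Of the 32 genes tested from Klrb1a to Klra1, 26 had a lower and 6 a higher mean in the Ext1S100a4Cre host, with a median of -0.83. Klrh1, chosen for its split, was the one of the 32 without overlap between hosts, beside 4.52% of all genes tested. The next lowest difference, -2.01 (SE 0.97), belonged to the myeloid lectin gene Clec12a. This stretch was delimited with the values known.

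**Figure D3:**
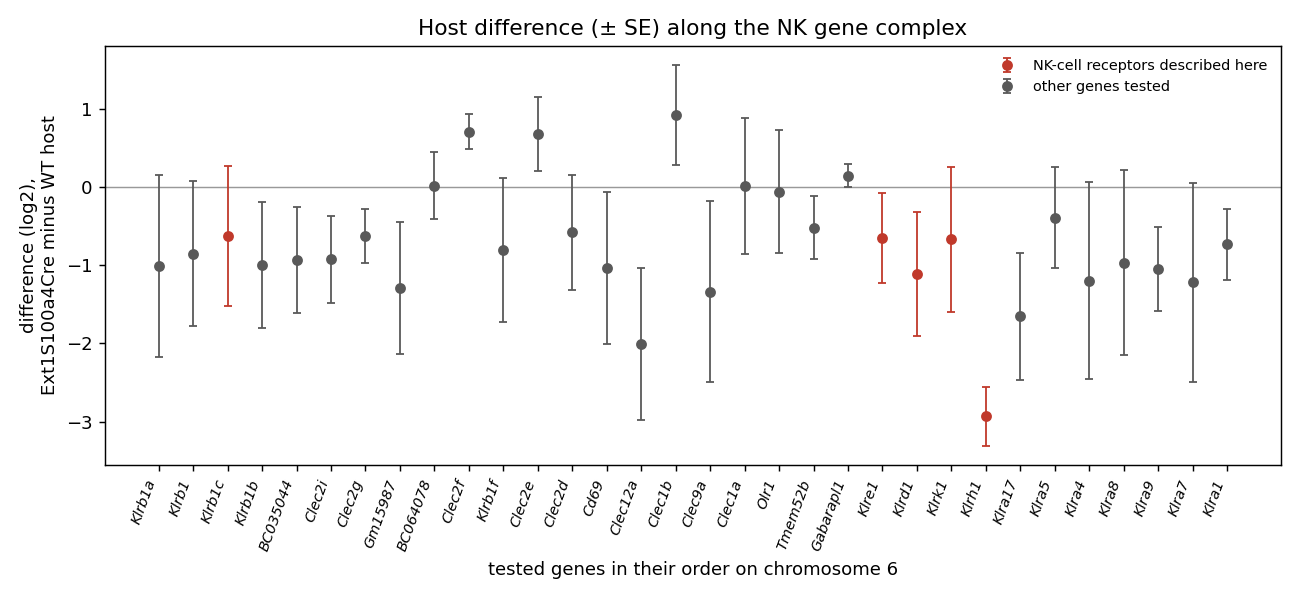
Difference between hosts (y axis, log2, Ext1S100a4Cre host minus WT host, bars ± SE of limma) for 32 tested genes in their order along the NK gene complex on chromosome 6 (x axis, order only, not distance). Receptors described in the text are red; Klrh1 stands at -2.93 and its tested neighbours Klrk1 and Klra17 at -0.67 and -1.66.

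In the wider list of NK complex receptors, 12 of 22 genes were tested. All 12 had a lower mean in the Ext1S100a4Cre host, 0 passed the adjusted threshold, and the median difference was -1.01. Klra2 differed by -2.10 (SE 0.88), Klra7 by -1.22 (SE 1.27) and Klrb1a by -1.02 (SE 1.16). Ext1S100a4Cre host tumour 1 was the lowest for 11 and WT host tumour 3 the highest for 12 of them. Without Ext1S100a4Cre host tumour 1 the mean difference of the list was -0.40, and without its tumours 1 and 4 it was -0.07.

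Activating NK receptors signal through small membrane adaptors, 6 of which were tested with 6 lower means and 0 passing. Hcst (DAP10) and Tyrobp (DAP12) carry the NKG2D signal, and differed by -0.58 (SE 0.80) and -1.30 (SE 0.77). Fcer1g and Cd247, which serve NKp46, differed by -1.38 (SE 0.75) and -0.11 (SE 0.18). Without Ext1S100a4Cre host tumour 1, Hcst, Tyrobp, Fcer1g and Cd247 differed by 0.05, -0.75, -0.81 and -0.13. Tyrobp and Fcer1g are also abundant in myeloid cells. Sh2d1b1, which encodes EAT-2, an adaptor of the 2B4 family, measured -7.06, -6.64, -5.12 and -7.33 in Ext1S100a4Cre host tumours 1 to 4 and -5.60, -4.74, -3.90 and -5.43 in WT host tumours 1 to 4. The probe cleared background in 1 Ext1S100a4Cre tumour, tumour 3, which lay inside the WT range, and in all 4 WT tumours. The difference of -1.62 (SE 0.55) thus rests on background readings in the other 3 Ext1S100a4Cre tumours. Sh2d1a, which encodes the related adaptor SAP, differed by -1.25 (SE 0.74).

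Of the ligands of NKG2D, 4 were tested and 4 had a lower mean in the Ext1S100a4Cre host. Raet1e measured 1.75 ± 0.29 in the Ext1S100a4Cre host and 1.95 ± 0.24 in the WT host (SD, n = 4 each). Ulbp1, H60b and H60c differed by -0.65 (SE 0.32), -0.38 (SE 0.23) and -0.75 (SE 0.70), and 0 of these 4 ligand genes passed. H2-T23, which encodes Qa-1, differed by -0.71 (SE 0.51), and Cd48, which encodes the ligand of 2B4 and is carried by leukocytes, by -1.30 (SE 0.68). Of the cadherin ligands of KLRG1, N-cadherin (Cdh2) measured 0.63, 0.92, 0.32 and 0.96 in Ext1S100a4Cre host tumours 1 to 4 and -0.48, -0.15, -0.55 and -1.11 in WT host tumours 1 to 4. All Ext1S100a4Cre host tumours lay above all WT host tumours, a difference of 1.28 (SE 0.24) that missed the adjusted threshold, while E-cadherin (Cdh1) differed by 0.11 (SE 0.17) and R-cadherin (Cdh4) by 0.23 (SE 0.41), both with overlap, and Cdh4 by -0.13 without WT host tumour 3. Over all genes tested, 3.38% lay without overlap higher in the Ext1S100a4Cre host.

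Intracellular signalling genes had 9 lower and 3 higher means among 12 tested, with a median of -0.74 and 0 passing. Fyn, a kinase that acts below these receptors, was the 1 of the 12 without overlap. Over all genes tested, 1.14% lay lower without overlap. Fyn differed by -0.46 (SE 0.12), whereas the kinase Lck differed by 0.18 (SE 0.35). Of 17 regulators and cytokines of NK cells, 14 had a lower and 3 a higher mean, with a median of -0.49 and 0 passing. The transcription factors Eomes and Tbx21, which NK cells need to mature, differed by -0.33 (SE 0.38) and -0.70 (SE 0.75). Il15, the survival cytokine of NK cells, differed by -0.55 (SE 0.70) and Il2rb by -1.06 (SE 0.93). Without Ext1S100a4Cre host tumour 1, Eomes, Tbx21, Il15 and Il2rb differed by -0.07, -0.18, 0.10 and -0.17. The mean difference of the 17 then went from -0.57 to -0.22. Cytotoxic effector genes had 10 lower and 1 higher mean among 11 tested, with a median of -1.09 and 0 passing. Gzma (granzyme A) differed by -1.31 (SE 1.02), Nkg7, a granule protein, by -1.09 (SE 0.92), and perforin (Prf1) by 0.19 (SE 0.17). Without Ext1S100a4Cre host tumour 1 these 3 genes differed by -0.48, -0.33 and 0.22. The mean difference of the 11 effector genes then went from -0.95 to -0.44.

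Markers of T cells, macrophages and leukocytes at large also had lower means in the Ext1S100a4Cre host. The mean level of 11 T-cell markers lay between -3.48 and -1.06 in Ext1S100a4Cre host tumours and between -2.34 and -0.32 in WT host tumours, with 11 of 11 lower in mean and a median difference of -0.97. That of 7 macrophage markers lay between -2.08 and 0.80 in Ext1S100a4Cre host tumours and between 0.48 and 2.70 in WT host tumours, with 7 of 7 lower. Cx3cr1, at -2.75 (SE 0.78), was the 1 of the 7 without overlap, beside 1.14% of all genes tested lower without overlap. None of these marker genes passed the adjusted threshold. Without Ext1S100a4Cre host tumour 1 the mean difference was -0.61 for T-cell markers and -0.92 for macrophage markers, beside -0.07 for the 6 receptors. Without tumours 1 and 4 of that host these were -0.48, -0.69 and 0.18. With the mean of the 6 receptors, r over the 8 tumours was 0.764 for T-cell markers, 0.901 for macrophage markers and 0.978 for the other NK complex receptors. Without WT host tumour 3 and Ext1S100a4Cre host tumour 1 these became 0.319, 0.550 and 0.930. Epithelial markers had r = -0.335. Of 5 pan-leukocyte markers 5 had a lower mean (median -1.15), as did 8 of 8 tested NK receptors from outside the complex (median -1.05), while 6 of 7 epithelial markers had a higher one (median 0.15). The part of these cells in the receptor levels was not tested.

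B-cell markers had the closest tie to Klrh1 of the 13 lists compared with it. The mean level of 7 B-cell markers lay between -4.66 and -4.01 in Ext1S100a4Cre host tumours and between -3.76 and -2.75 in WT host tumours, without overlap. Its r was 0.889 with Klrh1 (rho = 0.857) and 0.487 with the mean of the 6 receptors (rho = 0.357). Without WT host tumour 3 and Ext1S100a4Cre host tumour 1 these were 0.797 and -0.441. Within the list 4 of 7 genes were without overlap and lower in the Ext1S100a4Cre host, beside 1.14% of all genes tested, and 3 had a higher mean. Ms4a1, like Klrh1, was not well above background in any Ext1S100a4Cre host tumour, while Cd79a, Pax5 and Cd22 differed by 0.08, 0.09 and 0.03. Both Klrh1 and several of these B-cell genes were known to be lower in this host, so their likeness is no separate evidence, and its source was not tested.

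**Figure D4:**
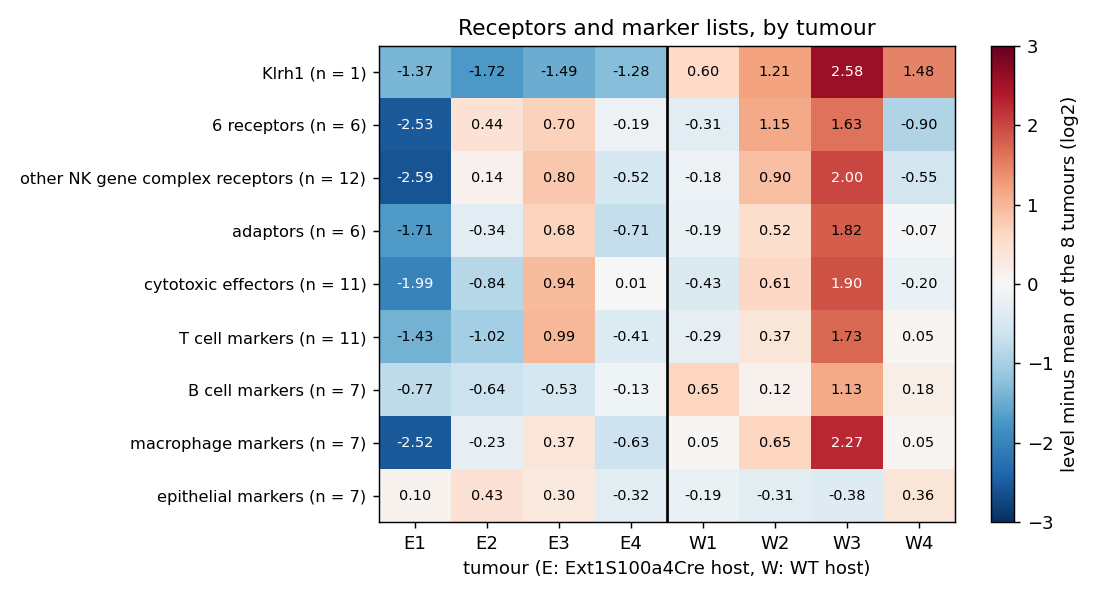
Level of Klrh1, of the mean of 6 receptors and of 7 gene lists in each tumour, minus the mean of the 8 tumours (colour and printed value, log2), with Ext1S100a4Cre host tumours (E1 to E4) left of the line and WT host tumours (W1 to W4) right of it; n is the number of genes averaged. Klrh1 and the B-cell list are negative in all E tumours and positive in all W tumours, whereas the 6 receptors are at 0.44 and 0.70 in E2 and E3 and at -0.31 and -0.90 in W1 and W4.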

How the data were processed

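From each tumour 0.5 µg of total RNA was labelled with Cy3 and hybridised to a 1-colour Agilent array, per the labels' protocols. The deposited scanner files came from Feature Extraction 10.7.3.1, per the file headers; version 9.1 stands in the submitters' processing notes. The deposited intensities are linear: per the file headers, the processed intensity is background-subtracted and detrended. The deposited flags (other columns, 0 or 1) tell which spots cleared background, were saturated or were outliers. In the deposited series matrix the values are those processed intensities (100% of single-spot values equal within 0.01%), with column medians of 46.7 to 79.4, so it has no scaling and no centring.

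Levels are log2 values of that intensity less the 75th percentile of the array's non-control spots. Outlier spots (53 to 132 per array) were left out, no spot was saturated, and replicate spots were averaged. A probe had to clear background on 4 or more of the 8 arrays, and the brightest such probe stood for its gene. Accessions without versions gave 32994 probes a symbol in RefSeq's table for GRCm38.p6. The headers name build mm9, so the table gave only names, chromosomes and gene order.

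The host contrast was fitted in limma 3.58.1 under R 4.3.3 (two-sided, no covariates, Benjamini-Hochberg over 31281 genes), checked on simulated data. SE is limma's. The members and lists were chosen with earlier results of these data known. Named by rule were the members, list genes, and the 6 and 10 genes of highest Pearson r to Klrh1 and to the mean standardised level of the other 7 receptors. Clec12a was named after its value was seen. Precision is limited by dim probes and by the number of arrays. Alternatives were normexp, quantile and median scaling, the series matrix, 2 other filters, the mean of a gene's probes, 2 blocks, and tumours left out. No sequence is printed because none was at hand.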

Additional observations from a re-analysis of the deposited data

How the results depend on the processing

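Klrh1 kept a lower mean in the Ext1S100a4Cre host under all 17 alternatives that could give a value, and with normexp its difference was -0.22. Since Klrh1 was chosen for this difference, the count is no separate evidence. Some alternatives could not change the value: no filter, the mean of a gene's probes and the 2 blocks each gave -2.93. The second Klrh1 probe entered none of the alternatives. The filter asking for all 8 arrays removed Klrh1. With each tumour left out in turn its difference ran from -3.22 to -2.56. The median over the members ran from -1.10 to -0.13 with 1 tumour left out, and became 0.055 without Ext1S100a4Cre host tumours 1 and 4. Normexp turned Klrb1c to 0.024. The alternatives were not run for Klrc1, whose probe did not pass the filter. Without Ext1S100a4Cre host tumour 1, Klrb1c, Klrk1 and Klrg1 turned to 0.18, 0.13 and 0.17, the upper ends of ranges that reached down to -1.12, -1.19 and -1.69. Without tumours 1 and 4 of that host, Klrb1c, Klrk1, Klrg1 and Ncr1 turned to 0.38, 0.16, 0.63 and 0.13. The cause was not tested. Genes with an adjusted p under 0.05 in limma numbered 1 with normexp, 11 without Ext1S100a4Cre host tumours 1 and 4, and 0 to 2 with 1 tumour left out, and 0 members were among them. Genes without overlap numbered 923 with median centring, 4309 without tumours 1 and 4, and 1880 to 3759 with 1 tumour left out, where fewer tumours make separation easier by construction. Of genes with an unadjusted p under 0.05 (2050; 1465 to 2966 with 1 tumour left out), 33.0% were lower in the Ext1S100a4Cre host, against 14.8% with normexp and 93.6% in the unscaled series matrix, whose median difference over all genes was -0.20. With the replicate number as a block there were 3241 such genes, but same-numbered tumours did not deviate together in every pair (correlations of 0.49, -0.16, 0.59 and -0.25), and 2 of 4 WT host tumours correlated best with their own number. Dim probes limit Klrh1, Klrc1, Klre1, Ncr1 and Sh2d1b1, whose low values are background readings.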

Other observations

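Detection in all WT host tumours and in no Ext1S100a4Cre host tumour, the pattern of Klrh1, was shared by 36 of the 31281 genes and transcripts tested (0.115%), 13 of them named, and the opposite pattern by 2. Klrh1 was chosen with its split known, and all 36 passed the filter through WT host readings alone, so these counts are no separate evidence. The lower share of detected probes in Ext1S100a4Cre host tumours 1 and 4 (65.7% and 66.0%) also bears on them, and its part was not tested. The named genes, listed after their values were seen, included Ms4a1, Fcrl1 and Klrh1, the sodium-proton exchanger Slc9a2, the growth factor gene Fgf20, the transporter gene Slc5a11 and the germ-cell gene Dppa3, which like Klrh1 lies on chromosome 6. Drd2, Efcab1, Lancl3 and Olfr1110 were also among them, and their levels overlapped between the hosts. For a fold, Ext1S100a4Cre host readings below the lowest level flagged well above background on their array were raised to it. Slc9a2 was then 2.33-fold lower, Fgf20 and Slc5a11 1.76-fold lower each, and Dppa3 1.60-fold lower in the Ext1S100a4Cre host. That level is not a strict detection limit, so these folds are not firm bounds.

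Tigit, a checkpoint receptor of NK and T cells, did not pass the filter. Its probe cleared background in 1 Ext1S100a4Cre tumour and in 2 WT tumours.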
